A study of Homo sapiens with 12 samples.

Results

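CHERP (calcium homeostasis endoplasmic reticulum protein) was depleted with siRNA in HEK293 cells, and the transcriptome was compared with that of cells given a control siRNA. CHERP is an RNA-binding protein first described at the endoplasmic reticulum, where it was linked to calcium release, and later placed in the nucleus with the U2 small nuclear ribonucleoprotein, the particle that recognises the branch site of introns. The endoplasmic reticulum folds secreted and membrane proteins with the help of resident chaperones and stores the calcium that those chaperones bind, and its chaperone genes are induced together by the unfolded protein response. The comparison asks how messenger RNA levels differ when CHERP is lowered. The members are the 3 CHERP knockdown libraries and the 3 control libraries of a series of 12, which also holds 3 libraries each of RBM17 knockdown and U2SURP knockdown. CHERP knockdown cells received the SMARTpool of ON-TARGETplus siRNAs against CHERP, and control cells a non-targeting siRNA, number 3 of the ON-TARGET plus line, for which no pool is named, so the groups may also differ in pooled against single siRNA. RBM17 and U2SURP knockdown cells received SMARTpools of the same line. All cells were at passage 10, and no agent other than the siRNAs is named. The source is given as HEK293, a human embryonic kidney line, and the line as HEK293T, its derivative with the large T antigen of SV40. Whether the 3 libraries of a group stem from separate cultures is not stated. The p-values therefore rest on differences among these libraries, which may be technical.

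Poly(A) RNA was sequenced to 274301499 to 306374638 gene counts in the CHERP knockdown libraries and 252505520 to 290187080 in the control libraries. Levels are given in CPM, counts scaled to library size with TMM factors, and differences as log2 fold changes ± SE of CHERP knockdown over control. A gene was called when its Benjamini-Hochberg adjusted p in edgeR's quasi-likelihood fit was under 0.05. CPM values are not divided by gene length, so they compare libraries and not genes. Of 18 genes of the renal precursor lineage that HEK293 cells are known to express, 16 averaged at least 1 CPM in control libraries, and their summed level was 483 to 513 CPM in CHERP knockdown and 449 to 467 CPM in control libraries. Markers of other cell types were also measured. Of 14 blood markers, 9 stayed under 0.1 CPM in all 6 libraries, CD45 (PTPRC) among them, and HBB was at 0 throughout; their sum was 5.08 to 6.16 CPM in CHERP knockdown and 5.67 to 6.64 CPM in control libraries. Of 10 endothelial markers 4 stayed under 0.1 CPM, and the sum was 12.3 to 13.5 CPM in CHERP knockdown and 26.7 to 28.8 CPM in control libraries. Fibroblast markers summed to 137 to 142 CPM in CHERP knockdown and 109 to 116 CPM in control libraries, with COL1A2, DCN, LUM, THY1, FAP and POSTN under 0.1 CPM, and epithelial markers to 112 to 122 CPM in CHERP knockdown and 85.9 to 95.4 CPM in control libraries, with KRT19, KRT7, KRT5 and KRT14 under 0.1 CPM. The part of these markers in any result was not tested. On the first principal component control library 3 stood at 8.26, against 25.1 and 28.2 for the other control libraries, and it held the fewest genes with at least 10 counts (26482, against 27771 and 27819). The library numbers in the titles form a separate run for each group, so how libraries were prepared together and which siRNA they received cannot be told apart.

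CHERP (ENSG00000085872; GRCh38 chromosome 19, 16517889 to 16542530, minus strand, up to 17 exons) was lowered in every knockdown library. Its level was 18.8, 17.9 and 17.2 CPM in CHERP knockdown, against 61.6, 62.1 and 60.1 CPM in control libraries, so that 29.3% of the control level remained (log2 fold change -1.77 ± 0.053, adjusted p = 4.45e-17). Whether fewer cells held the transcript or each cell held less of it cannot be told apart in bulk RNA. C19orf44, which overlaps CHERP on the opposite strand, did not pass the test (-0.02, adjusted p = 0.776), while the neighbour SLC35E1, a solute carrier gene on the same strand, fell (-0.30, adjusted p = 1.01e-04). Of the other nearby genes EPS15L1 fell (-0.12), as did RN7SL146P (-1.38), which lies within CHERP, and AC008764.9 (-0.75), each of the last pair under 1 CPM; MED26 rose (0.21), as did CALR3 (1.04) at under 1 CPM. EPS15L1 was not called under 8 of 13 alternatives, with -0.15 to -0.04 over all of them. These include the omission of CHERP knockdown library 2 or control library 1 or 3 (-0.12 to -0.10). MED26 was not called under 4 of 13, with 0.16 to 0.32 over all of them. These include the omission of CHERP knockdown library 1 or 2 or control library 2 (0.17 to 0.21). U2SURP, a partner of CHERP at the U2 particle, rose to 522, 563 and 604 CPM in CHERP knockdown, against 434, 480 and 499 CPM in control libraries (0.26 ± 0.060, adjusted p = 9.92e-04). Without CHERP knockdown library 3 that difference was 0.17 (adjusted p = 0.0304), with no higher p under any alternative run. RBM17, the other U2-associated protein targeted in the series, stood at 119, 122 and 127 CPM against 112, 116 and 118 CPM and did not pass (0.09 ± 0.047, adjusted p = 0.107). It was called by the DESeq2 Wald test (0.12, adjusted p = 0.0325), among protein-coding genes alone (0.10, adjusted p = 0.0373) and without CHERP knockdown library 1 and control library 3 (0.13, adjusted p = 0.038), with adjusted p-values of 0.0325 to 0.638 over its alternatives.

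The response reached a large part of the transcriptome, mostly by small amounts. Of 29003 genes tested, 13731 (47.3%) were called, 6610 higher (22.8%) and 7121 lower (24.6%) in CHERP knockdown, and the median over all genes was -0.0035. Differences of at least 2-fold were found for 992 called genes that rose (3.42%) and 1355 that fell (4.67%). When edgeR tested against a 2-fold change itself, 162 genes rose and 275 fell. Among 16291 protein-coding genes 4831 rose (29.7%) and 5047 fell (31.0%), and among 6388 long non-coding RNA genes 886 rose (13.9%) and 1202 fell (18.8%). The 3 CHERP knockdown libraries lay entirely above or below the 3 control libraries for 15937 genes (54.9%). Statements that groups do not overlap have to be read against that share. Counts of called members in the lists below have to be read against the called shares. For lists of protein-coding genes these are 29.7% higher and 31.0% lower. The plot of fold change against expression level shows the folding machinery of the endoplasmic reticulum and the mitochondrially encoded genes below 0, and p53 targets and ribosomal protein genes above it.

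**Figure D1:**
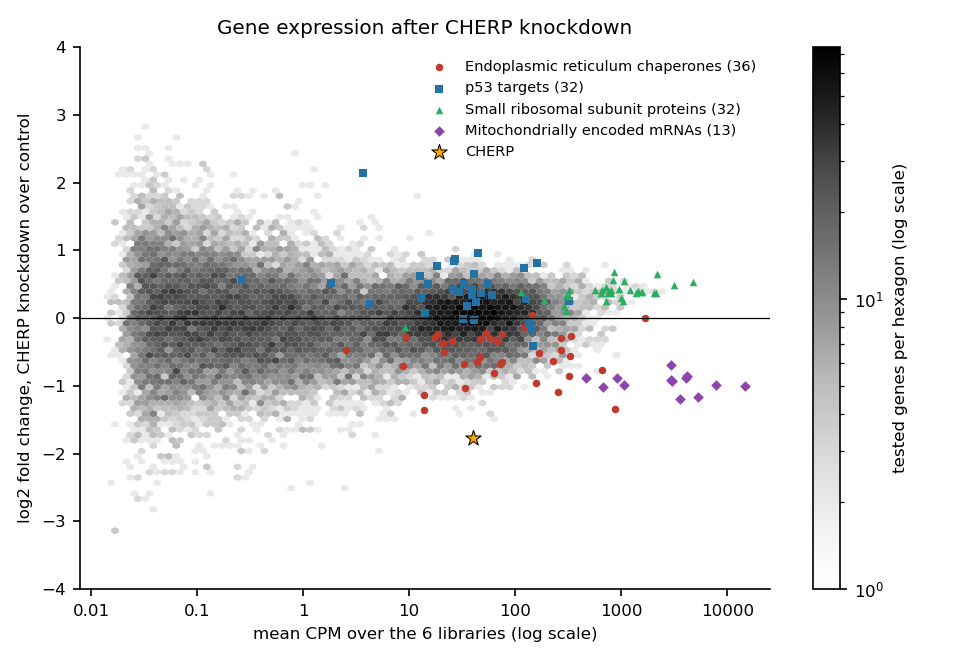
Log2 fold change of CHERP knockdown over control (vertical) against mean CPM over the 6 libraries (horizontal, log scale) for all tested genes (grey hexagons, darker for more genes; 8 genes beyond ±4 are not drawn), with 4 gene lists and CHERP marked. All 13 mitochondrially encoded genes and 32 of 36 endoplasmic reticulum chaperones were called lower, 30 of 32 small ribosomal subunit genes and 23 of 32 p53 targets higher.

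The largest decreases included several secreted and membrane proteins. Among 3620 protein-coding genes that were called lower with at least 5 CPM in either group and no overlap between the groups, ALDH8A1 fell most. ALDH8A1, an aldehyde dehydrogenase of the kynurenine pathway (chromosome 6, 134917390 to 134950122), had 1.26, 1.37 and 1.31 CPM in CHERP knockdown, against 14.4, 13.4 and 11.3 CPM in control libraries (-3.31 ± 0.116, adjusted p = 4.76e-16). The other 17 aldehyde dehydrogenase genes tested ranged from -1.15 to 1.15, 3 of them called lower and 4 higher, ALDH1A3 among these (1.15); with ALDH8A1 counted, 2 in place of 4 were lower without control library 3. GPR50, an orphan receptor related to the melatonin receptors, had 7.87, 7.72 and 8.97 CPM in CHERP knockdown and 40.7, 39.3 and 39.2 CPM in control libraries (-2.28 ± 0.069, adjusted p = 4.45e-17). The long non-coding RNA KC877982.1, which lies downstream of GPR50 on the same strand of chromosome X, fell as well (-2.20 ± 0.106), to 1.17, 1.36 and 1.56 CPM in CHERP knockdown, against 5.86, 6.43 and 6.59 CPM in control libraries. TNC, which encodes the extracellular matrix protein tenascin C, had 7.03, 8.28 and 9.08 CPM in CHERP knockdown and 35.7, 31.6 and 33.1 CPM in control libraries (-2.04 ± 0.080). CLSTN2, a calsyntenin of synapses (-2.18), UNC5A, a netrin receptor (-1.94), NPTXR, the neuronal pentraxin receptor (-1.88), SCUBE1, a secreted EGF-domain protein (-1.98), CUBN, the endocytic receptor cubilin (-1.92) and LSR, the lipolysis-stimulated lipoprotein receptor (-1.88) followed. That the groups do not overlap for these genes was a condition of their choice. MTG1, a mitochondrial ribosome GTPase (-1.98), ARC, an immediate-early gene of neurons (-2.09), and C11orf96 (-2.55) complete the 12.

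The largest increases included stress-linked genes. Among 3800 protein-coding genes called higher under the same conditions, GDF15 rose most (2.14 ± 0.381, adjusted p = 0.00155). GDF15 encodes a secreted stress cytokine and is a p53 and ATF4 target. It had 3.29, 7.09 and 7.72 CPM in CHERP knockdown and 1.47, 1.26 and 1.39 CPM in control libraries, and CHERP knockdown library 1 was the lowest of its group. The same library was the lowest of its group for SMC1B, the meiotic cohesin subunit, which had 11.1, 14.6 and 15.0 CPM in CHERP knockdown and 3.17, 3.35 and 3.22 CPM in control libraries (2.06 ± 0.108, adjusted p = 5.62e-13). NUPR1, a stress-induced chromatin protein, had 21.4, 26.4 and 26.1 CPM in CHERP knockdown and 6.63, 5.99 and 6.83 CPM in control libraries (1.93 ± 0.108). POU2F2, a lymphoid transcription factor (2.02), PKD1L1, a polycystin-family membrane protein (1.84), SLC43A2, an amino acid transporter (1.81), SLC16A3, a lactate transporter (1.77), and INPP5D, an inositol phosphatase of blood cells (1.76), rose by more than TFAP2E, an AP-2 family transcription factor (1.71), LGR6, an R-spondin receptor (1.69), DNAJA4, a heat shock cochaperone (1.58), and PTAFR, the platelet-activating factor receptor (1.55). Under the same conditions, which 126 long non-coding RNAs called higher and 208 called lower met, those that rose most were AATBC (2.22 ± 0.108, 19.5, 19.3 and 19.6 CPM against 4.17, 4.92 and 3.40 CPM), MTUS2-AS1 (2.20), LNCOC1 (1.98) and AC073529.1 (1.43). The long non-coding RNAs that fell most after KC877982.1 were SLC9A3-AS1 (-1.87), AC015813.1 (-1.79) and AL117339.4 (-1.70). MTUS2-AS1, SLC9A3-AS1 and AL117339.4 overlap a protein-coding gene, as do CHERP, UNC5A, MTG1, SLC16A3, DNAJA4 and LNCOC1, and reads of such neighbours cannot be told apart without the strand setting of the counting.

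**Figure D2:**
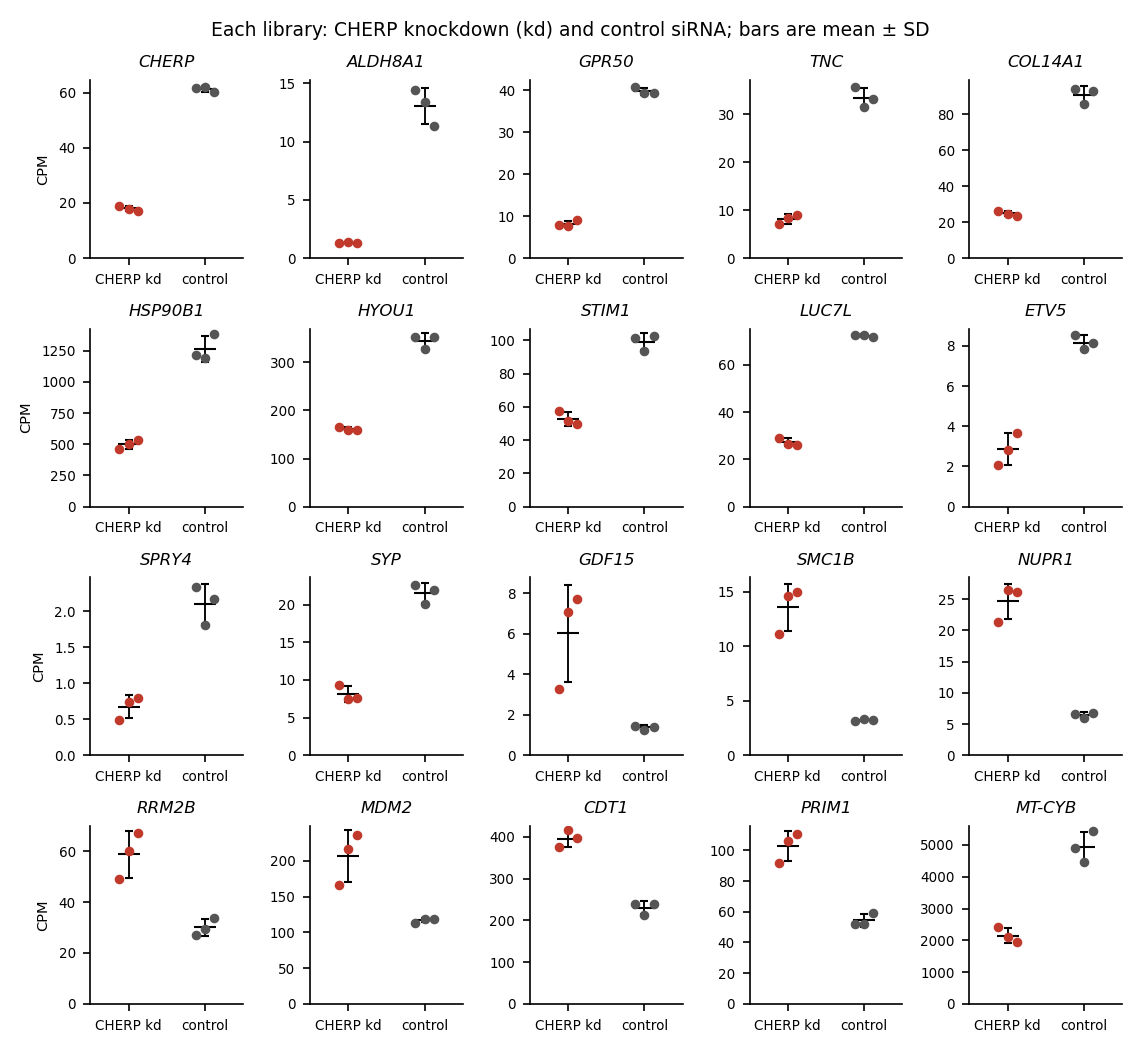
CPM of 20 genes in each of the 3 CHERP knockdown libraries (left, red) and the 3 control libraries (right, grey), with mean ± SD (n = 3). In each of the 20 panels the groups do not overlap, which for the genes with the largest changes was a condition of their choice. GDF15 had 3.29 to 7.72 CPM in CHERP knockdown and 1.26 to 1.47 CPM in control libraries.

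Genes for the folding machinery of the endoplasmic reticulum fell as a group. Of 36 chaperones, disulfide isomerases and folding cofactors, 32 fell (88.9%) and none rose, beside 24.6% and 22.8% of all genes, with a median of -0.51 (range -1.36 to 0.04). At least 2-fold lower were 5 of the 36, beside 4.67% of all genes. HSP90B1, the HSP90 of the endoplasmic reticulum (GRP94), had 464, 500 and 533 CPM in CHERP knockdown, against 1217, 1194 and 1380 CPM in control libraries (-1.34 ± 0.067, adjusted p = 1.68e-13). HYOU1, the nucleotide exchange factor GRP170, had 166, 159 and 160 CPM in CHERP knockdown and 354, 327 and 353 CPM in control libraries (-1.09 ± 0.050, adjusted p = 4.43e-14). The groups stood far apart for both. HSPA5, the luminal HSP70 known as BiP, had 486, 499 and 494 CPM in CHERP knockdown and 843, 784 and 877 CPM in control libraries (-0.76 ± 0.054, adjusted p = 5.67e-11). CALR, the calcium-binding lectin chaperone calreticulin, had 244, 224 and 221 CPM against 409, 388 and 455 CPM (-0.86 ± 0.061, adjusted p = 6.19e-11). PDIA4, a disulfide isomerase (-0.96), CNPY3, a cofactor of HSP90B1 (-1.03), and its relative CNPY4, the lowest of the list (-1.36), fell as well. CANX, the membrane-bound lectin chaperone calnexin, had 1580, 1674 and 1772 CPM in CHERP knockdown and 1577, 1599 and 1827 CPM in control libraries, with overlapping groups (0.01 ± 0.065, adjusted p = 0.947). The other members that did not pass were ERP29 (0.04), ERO1A (-0.14) and ERO1B (-0.31, adjusted p = 0.0566). ERO1A was called without CHERP knockdown library 3 (-0.21) or without control library 1 (-0.21), and with GC and length offsets (-0.18). ERO1B was called under 4 of 13 alternatives, with -0.40 to -0.24 over all of them, and ERP29 under 1 of 13 (0.14).

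Many of the folding genes were lower in CHERP knockdown than in the other knockdowns too. Measured against the control libraries that all 3 comparisons share, the list's median was -0.51 in CHERP, -0.33 in U2SURP and -0.13 in RBM17 knockdown. In the direct contrasts 29 of the 36 were lower in CHERP than in RBM17 knockdown, beside 26.1% of all genes, and 19 were lower than in U2SURP knockdown, beside 15.0%; 1 was higher in each. Of 16291 protein-coding genes alone, 6582 were lower in CHERP than in RBM17 knockdown and 3492 lower than in U2SURP knockdown. HYOU1 was 1.24 log2 units below its level in RBM17 knockdown (adjusted p = 2.68e-15) and 0.80 below that in U2SURP knockdown (adjusted p = 2.95e-11), and HSPA5 lay 0.57 and 0.45 below them.

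**Figure D3:**
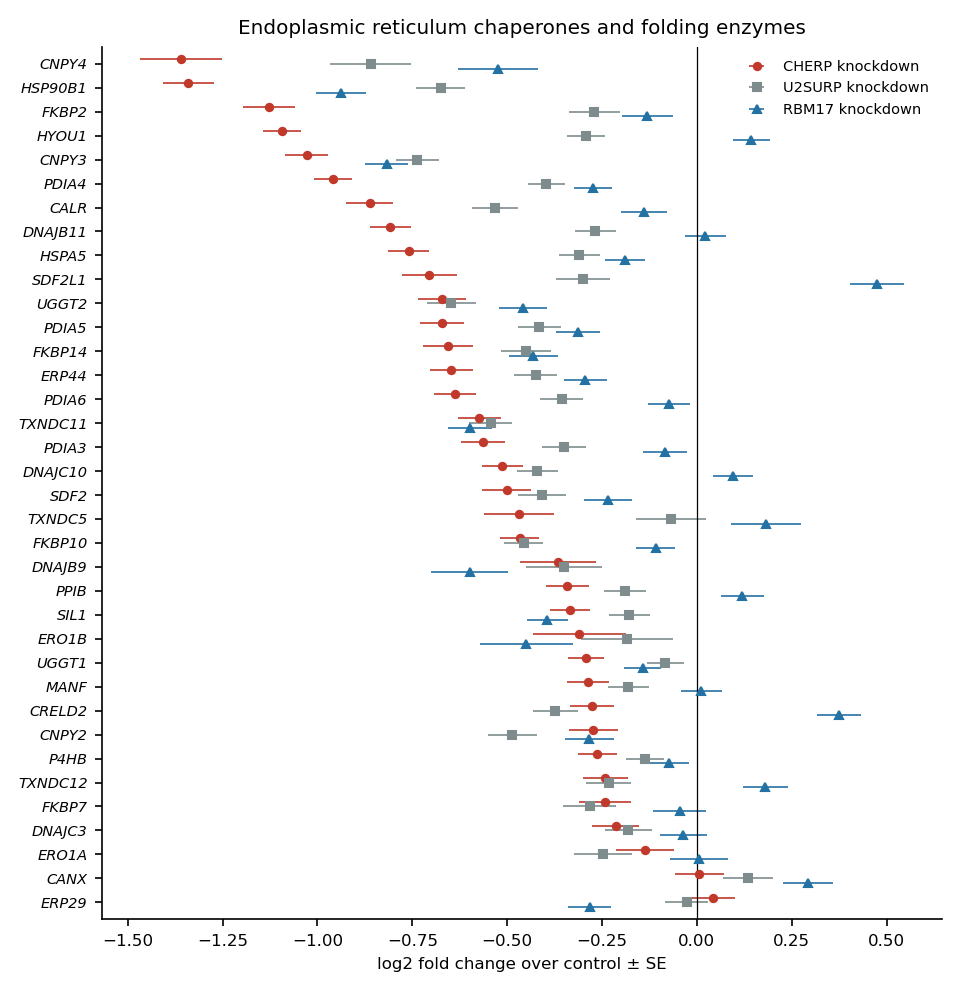
Log2 fold change over control ± SE of the 36 endoplasmic reticulum chaperone and folding genes in CHERP (red circles), U2SURP (grey squares) and RBM17 knockdown (blue triangles), ordered by the CHERP value; all 3 use the same control libraries. The CHERP values run from -1.36 for CNPY4 to 0.04 for ERP29.

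The endoplasmic reticulum stress element, CCAAT and CCACG with 9 bases between them, is the promoter site through which ATF6 and XBP1 induce many of these genes. RefSeq promoter windows (GRCh38.p14, 250 bases before to 50 after the start) were matched for 33 of the 36 genes and searched on both strands. The element was present in 7 of the 33 genes (21.2%), beside 25 of all 27305 genes with a window (0.0916%), or 27 of 35116 windows (0.0769%). Of the 7, HSP90B1, HSPA5, CALR, PDIA6 and CRELD2 fell, while CANX and ERO1B did not pass. Among all 21 tested genes with the element, these 7 included, 9 fell and 3 rose, so 5 of the 9 are those of the list. Of all protein-coding genes 31.0% fell and 29.7% rose. The shorter form, ATTGG and CCACG with 1 base between them, was present in HYOU1 and SDF2L1, both of which fell, and in 19 genes in all (0.0696%; 0.0541% of windows). Of the 15 tested genes with the short form, HYOU1 and SDF2L1 included, 7 fell and 6 rose, with a median of -0.03. The stretches that follow show the element, in capitals, in 4 genes that fell, in CANX, which holds the element without a called change, and the short form in HYOU1. Each is written 5′ to 3′ on the strand of the gene, and all lie upstream of the start; capitals that begin with CGTGG are the element on the opposite strand.
HSP90B1: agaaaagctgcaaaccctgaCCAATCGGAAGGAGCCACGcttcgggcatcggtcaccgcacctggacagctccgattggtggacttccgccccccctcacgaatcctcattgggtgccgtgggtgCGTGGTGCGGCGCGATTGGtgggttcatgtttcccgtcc
HSPA5: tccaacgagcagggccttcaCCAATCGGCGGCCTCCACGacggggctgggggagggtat
CALR: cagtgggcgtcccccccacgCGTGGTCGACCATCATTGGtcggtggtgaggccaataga
PDIA6: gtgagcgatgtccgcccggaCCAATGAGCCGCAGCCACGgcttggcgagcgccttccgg
CANX: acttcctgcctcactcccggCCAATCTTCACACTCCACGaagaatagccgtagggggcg
HYOU1: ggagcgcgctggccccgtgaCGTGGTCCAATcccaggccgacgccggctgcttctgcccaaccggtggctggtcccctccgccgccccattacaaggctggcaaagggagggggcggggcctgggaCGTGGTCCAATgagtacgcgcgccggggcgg
They lie at chr12:103930196-103930359 (plus strand) for HSP90B1, chr9:125241371-125241429 (minus) for HSPA5, chr19:12938364-12938422 (plus) for CALR, chr2:10812833-10812891 (minus) for PDIA6, chr5:179698758-179698816 (plus) for CANX and chr11:119057254-119057410 (minus) for HYOU1. HSP90B1 and HYOU1 each hold a pair, which begins 194 and 89 bases before the start in HSP90B1 and 185 and 79 bases before it in HYOU1. These matches describe letters in the window and not binding.

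The disposal of misfolded proteins and the sensors of folding stress were lower to a lesser extent. Of 32 such genes 23 fell (71.9%) and 3 rose, with a median of -0.23. ATF6B, a relative of the sensor ATF6, had 54.8, 58.3 and 59.3 CPM in CHERP knockdown and 101, 90.3 and 99.0 CPM in control libraries (-0.75 ± 0.054). OS9, a lectin of degradation (-0.58), and HERPUD1, a scaffold of the ligase complex (-0.52), fell as well. The sensors themselves moved less: EIF2AK3 (PERK) by -0.42, ERN1 (IRE1) by -0.29, ATF6 by -0.23 and the transcription factor XBP1 by -0.24 (adjusted p = 0.0019), with 183, 192 and 199 CPM in CHERP knockdown and 231, 202 and 244 CPM in control libraries. VCP, the ATPase that extracts ubiquitinated proteins, rose (0.27), as did the ubiquitin conjugase UBE2J1 (0.23) and HERPUD2 (0.14), the last of which was not called when any library but control library 3 was left out (0.11 to 0.14). Without CHERP knockdown library 1 and control library 3 together XBP1 was not called (-0.14).

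Other machinery of the secretory pathway did not follow as a block. Of 34 genes for protein entry and N-glycosylation 15 fell (44.1%) and 8 rose (23.5%; median -0.07); 5 rose without CHERP knockdown library 2 or 3 or control library 1 or 2. The genes that fell included SEC61A1, the channel subunit (-0.68, with 269, 248 and 248 CPM against 420, 383 and 421 CPM), STT3A, a catalytic subunit of oligosaccharyltransferase (-0.74), its partner RPN1 (-0.72), and SRPRA, the signal recognition particle receptor (-0.64). The cytosolic signal recognition particle went the other way, with SRP72 (0.55), SRP54 (0.41), SRP68 (0.38) and SRP14 (0.39) higher. Of 34 genes for COPI and COPII coats and their cargo receptors 11 rose (32.4%) and 8 fell (23.5%; median 0.04); 5 fell without CHERP knockdown library 2 or control library 3. Of all protein-coding genes 29.7% rose and 31.0% fell. The coat subunits COPZ1 (0.59), SEC23B (0.44) and SEC31A (0.43) and the GTPase ARF1 (0.41) rose, while the cargo receptors SURF4 (-0.74) and TMED10 (-0.51) and the Golgi tether GOLGB1 (-0.64) fell.

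Genes for calcium storage and entry, with which CHERP was first associated, were mostly lower. Of 44 genes 30 fell (68.2%) and 8 rose (18.2%), with a median of -0.29. STIM1, the sensor of calcium in the store, had 57.8, 51.4 and 49.8 CPM in CHERP knockdown, against 101, 93.4 and 103 CPM in control libraries (-0.90 ± 0.058, adjusted p = 1.21e-11). STIM2, its relative, fell by 0.69 and the plasma membrane channel ORAI1 by 0.26, which was not called with offsets for GC content and length (-0.13). All 3 inositol trisphosphate receptors, the release channels of the store, fell: ITPR1 by 0.49, with 67.2, 63.2 and 60.6 CPM against 91.7, 87.6 and 88.6 CPM, ITPR2 by 0.75 and ITPR3 by 0.39. The ryanodine receptor RYR2 (-0.73), the plasma membrane pump ATP2B1 (-0.75) and the ubiquitous store pump ATP2A2 (-0.42) fell as well. ATP2A1, the store pump of fast muscle, rose to 23.5, 22.3 and 21.3 CPM in CHERP knockdown, against 12.7, 11.2 and 11.2 CPM in control libraries (0.94 ± 0.065). PPP3CB (0.65) and PPP3R1 (0.46), calcineurin subunits, and NFATC3 (0.43), a transcription factor that calcineurin activates, rose. All of these genes but ORAI1 and ATP2A2 overlap another annotated gene.

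Targets of ERK signalling fell more often than they rose. CIC is a repressor that ERK signalling relieves; its targets include the ETS factors ETV1, ETV4 and ETV5 and feedback inhibitors of the pathway. Of 32 genes in the list of CIC targets and ERK feedback 17 fell (53.1%) and 7 rose (21.9%; median -0.32), and 9 were at least 2-fold lower. ETV5 had 2.08, 2.81 and 3.68 CPM in CHERP knockdown and 8.53, 7.82 and 8.13 CPM in control libraries (-1.51 ± 0.318, adjusted p = 0.00389). ETV4 (-1.36) and ETV1 (-1.28) fell likewise. The feedback inhibitors SPRED2 (10.7, 10.7 and 10.5 CPM against 22.0, 21.6 and 21.3 CPM in control libraries; -1.03 ± 0.062), DUSP4 (-1.40) and SPRY4 (-1.64), and the receptor EPHA2 (-1.0), also fell, and LIF (0.79), CCND1 (0.21) and PHLDA3 (0.87) rose. In RBM17 knockdown against the same control libraries, where 54.7% of all genes were called (29.3% lower), ETV5 stood at -2.02, SPRY4 at -2.23 and ETV4 at -1.27, whereas SPRED2 was 1.27 log2 units lower in CHERP than in RBM17 knockdown (adjusted p = 6.02e-14). The CIC octamer (TGAATGAA or TCAATGAA, both strands) was found in the windows of 5 of 22 matched genes of the list, of which EPHA2 and MAFF fell, SPRED3 and SHC4 rose and PLK3 was not called; it is present in 2.87% of all genes with a window and 2.33% of all windows. Among all 330 tested genes with the octamer, the 5 of the list included, 99 rose and 97 fell, beside 29.7% and 31.0% of protein-coding genes. SPRED3 was not called without CHERP knockdown library 1 (0.31) or control library 3 (0.28), nor SHC4 without CHERP knockdown library 1 or 3 or control library 1 or 3 (0.35 to 0.48).

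Immediate-early genes, which growth factors and calcium induce within minutes, were mostly lower. Of 25 tested, 17 fell (68%) and 4 rose (16%), with a median of -0.57 and 10 of them at least 2-fold lower. EGR1 had 15.0, 17.2 and 19.7 CPM in CHERP knockdown, against 61.7, 57.8 and 53.2 CPM in control libraries (-1.74 ± 0.271, adjusted p = 7.19e-04). FOS had 5.54, 6.76 and 8.33 CPM against 21.6, 19.4 and 19.8 CPM (-1.56 ± 0.322, adjusted p = 0.00373). EGR2 (-1.49), DUSP1 (-0.91), CCN1 (-0.79) and ZFP36 (-1.27) fell, and BTG2 (0.43), KLF6 (0.24), KLF10 (0.20) and SRF (0.15) rose, although SRF was not called without CHERP knockdown library 1 or control library 2 (0.12 each). MYC did not pass (-0.02). For FOS, EGR1 and ETV5 alike the 3 control libraries lay above all knockdown libraries.

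Most p53 targets were higher. HEK293T cells carry the SV40 large T antigen, which binds p53. Of 32 p53 targets and pathway genes 23 rose (71.9%) and 2 fell, with a median of 0.41, beside 22.8% and 24.6% of all genes. MDM2, the ubiquitin ligase of p53, had 166, 216 and 237 CPM in CHERP knockdown, against 113, 119 and 119 CPM in control libraries (0.82 ± 0.129, adjusted p = 3.44e-04). RRM2B, a ribonucleotide reductase subunit (0.97), ZMAT3, an RNA-binding p53 target (0.65), SPATA18, a gene of mitochondrial quality control (0.62), and TIGAR, a regulator of glycolysis (0.50), rose. CHERP knockdown library 1 was the lowest of its group for MDM2, RRM2B, ZMAT3 and TIGAR, yet still above all control libraries. CDKN1A, the cell cycle inhibitor p21 and the best known target, had 35.7, 41.0 and 43.5 CPM in CHERP knockdown and 42.5, 39.0 and 41.7 CPM in control libraries, with overlapping groups (-0.03 ± 0.068, adjusted p = 0.71). TNFRSF10B, a death receptor (-0.41), and FBXO22 (-0.18) fell, the second of which was not called without CHERP knockdown library 1 or control library 2 (-0.12 each). In direct contrasts 19 of the 32 were higher in CHERP than in RBM17 knockdown, beside 25.5% of all genes, and 13 were higher than in U2SURP knockdown, beside 12.9%; 4.0 and 2.0 were lower.

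The amino acid response, driven by the transcription factor ATF4, held more increases than decreases. Of 37 genes 20 rose (54.1%) and 6 fell (16.2%; median 0.18). Enzymes and tRNA synthetases rose: WARS1 to 169, 179 and 167 CPM in CHERP knockdown, against 94.7, 92.6 and 97.7 CPM in control libraries (0.85 ± 0.050), CTH of cysteine synthesis by 0.96 and PHGDH of serine synthesis by 0.75. The transcription factor ATF5 rose by 1.33 and ATF4 by 0.18 (adjusted p = 0.0178), which was not called without CHERP knockdown library 3 or control library 1 or 2 (0.13 to 0.17). Of the amino acid transporters in the list SLC7A1, SLC38A2, SLC3A2 and SLC7A5 fell and SLC7A11 did not pass (0.11; called without control library 3, 0.17), while SLC43A2, outside the list, rose (1.81). SLC7A1 stood at 445, 418 and 417 CPM in CHERP knockdown and 757, 702 and 768 CPM in control libraries (-0.80 ± 0.053), SLC38A2 at -0.57, SLC3A2 at -0.37 and SLC7A5 at -0.23, which was not called with offsets for GC content and length (-0.08); DDIT4, an inhibitor of mTOR, fell by 0.52. DDIT3 (CHOP), the death-linked factor of the unfolded protein response, did not pass (0.13, adjusted p = 0.0815). It was called under 6 of 13 alternatives, with 0.06 to 0.19 over all of them. Among the 6 were the omission of control library 1 (0.18) or 3 (0.16) and the DESeq2 Wald test (0.16). Cytosolic chaperones also differed from those of the endoplasmic reticulum: of 23 heat shock genes 15 rose (65.2%) and 1 fell (median 0.26), with HSPA4L (0.57), HSPA4 (0.56), STIP1 (0.51) and HSF2 (0.47) higher and the small heat shock gene HSPB8 lower (-0.82).

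Genes of the U2 particle, to which CHERP belongs, rose more often than they fell. Of 26 U2 particle proteins and associated factors 14 rose (53.8%) and 4 fell (15.4%), CHERP included (median 0.19), beside 29.7% and 31.0% of protein-coding genes. SF3A1 had 260, 261 and 255 CPM in CHERP knockdown, against 169, 167 and 176 CPM in control libraries (0.60 ± 0.054, adjusted p = 3.13e-09), and SF3B2 had 487, 509 and 508 CPM against 336, 326 and 353 CPM (0.57 ± 0.055). PUF60 (0.44) and SMNDC1 (0.60), factors of 3′ splice site recognition and spliceosome assembly, rose too. SF3B1, the largest SF3B subunit, did not pass (-0.05, adjusted p = 0.434). SF3B6, which contacts the branch site within SF3B, fell (-0.35) to 97.5, 103 and 106 CPM in CHERP knockdown, against 121, 125 and 145 CPM in control libraries, and was 0.93 lower than in RBM17 knockdown (adjusted p = 1.59e-11) and 0.80 lower than in U2SURP knockdown (adjusted p = 1.34e-09). U2AF2, which binds the polypyrimidine tract, fell (-0.25). The remaining member called lower, U2AF1, has a near-identical annotated copy that can split its reads, and stood at -1.28 (adjusted p = 0.0269); it was not called when any library but control library 2 was left out, although its fold change stayed at -1.42 to -1.15.

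SR proteins and their partners went down more often than up. Of 24 such genes 13 fell (54.2%) and 5 rose (20.8%; median -0.22). LUC7L, a U1-associated factor, had 29.2, 26.4 and 26.2 CPM in CHERP knockdown, against 72.8, 72.6 and 71.6 CPM in control libraries (-1.41 ± 0.055, adjusted p = 3.41e-15). LUC7L3 (-0.89), PNISR (-0.94), RSRP1 (-1.36) and SRSF5 (-0.59) followed; against the same control libraries LUC7L stood at -0.87 in RBM17 and -1.05 in U2SURP knockdown, in which 43.3% of all genes were called (22.2% lower). SRSF8 (0.37), RSRC1 (0.40), SRSF3 (0.35) and SRSF12 (0.27) rose. Among 16 kinases that phosphorylate SR proteins or belong to the same families 6 rose and 6 fell, each 37.5%. Among all protein-coding genes 29.7% rose and 31.0% fell. SRPK3, a muscle SR protein kinase, had 0.802, 0.627 and 0.800 CPM in CHERP knockdown and 4.47, 4.21 and 3.70 CPM in control libraries (-2.47 ± 0.121), and CLK1 (-0.76), PRPF4B (-0.42) and CLK4 (-0.40) fell, while HIPK1 rose (0.31). Of 21 factors of nonsense-mediated decay and the exon junction complex 9 rose (42.9%) and 3 fell (1 without CHERP knockdown library 2), led by MAGOHB (0.78) and CASC3 (0.48). Of 21 snoRNA host RNAs 9 rose (42.9%) and 7 fell (33.3%), with SNHG32 at 0.74 and SNHG20 at -0.61. Most of these RNAs are not protein-coding, and of all long non-coding RNA genes 13.9% rose and 18.8% fell. Gene counts do not show which exons a transcript retained.

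Most ribosomal protein genes were higher. Of 32 small subunit genes 30 rose (93.8%) and none fell (median 0.38), and of 47 large subunit genes 44 rose (93.6%) and 2 fell (median 0.41). RPS12 had 989, 1057 and 1080 CPM in CHERP knockdown, against 627, 602 and 719 CPM in control libraries (0.68 ± 0.067), and RPL12 had 1664, 1809 and 1887 CPM against 1085, 1029 and 1206 CPM (0.69 ± 0.068). RPL36A (-0.44) and RPL17 (-0.29) fell, and RPS10 (-0.14), RPS21 (0.11) and RPL41 (0.12) did not pass; RPS21 and RPL41 were called without control library 3 (0.19 each). RPL17 was not called without CHERP knockdown library 1 and control library 3 together (-0.18), and RPS10 was called with offsets for GC content and length (-0.20). These genes have many processed pseudogenes, which can take or lend reads. Compared directly with RBM17 knockdown, 43 of the 47 large subunit genes were higher in CHERP knockdown, beside 25.5% of all genes. Against U2SURP knockdown, in contrast, 5 were higher and 1 lower, beside 12.9% and 15.0% of all genes. The chaperonin that folds actin and tubulin also rose in all 8 CCT subunits (0.35 to 0.69), a family picked after the values were seen. Of 34 proteasome subunits 26 rose (76.5%) with none lower, among them PSMD10 (0.64), PSMB7 (0.64), PSMB6 (0.56) and PSMC3 (0.70).

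Mitochondrial transcripts fell. All 13 mitochondrially encoded mRNAs were lower, by 0.70 to 1.20 log2 units (median -0.94), and their genome took 4.61%, 4.15% and 3.98% of counts in CHERP knockdown libraries, against 8.31%, 7.88% and 8.70% in control libraries. MT-CYB, a subunit of complex III, had 2417, 2097 and 1932 CPM in CHERP knockdown and 4912, 4479 and 5425 CPM in control libraries (-1.20 ± 0.074, adjusted p = 6.75e-12). MT-ND4L (-0.99) and MT-ND4 (-0.99), complex I subunits that overlap, and MT-CO3 of complex IV (-1.16) were also lower. The list was lower in the other knockdowns too against the same control libraries (medians -0.71 in RBM17 and -0.68 in U2SURP knockdown), and 9 of the 13 were lower in CHERP than in RBM17 knockdown, beside 26.1% of all genes, and 11 lower than in U2SURP knockdown, beside 15.0%, with none higher in either. Of 16291 protein-coding genes alone, 6582 were lower in CHERP than in RBM17 knockdown and 3492 lower than in U2SURP knockdown. Copies of the mitochondrially encoded genes in the nuclear genome can take some reads. Among nuclear genes of the respiratory complexes, of 71 subunits 32 rose (45.1%) and 13 fell (18.3%; median 0.13), with NDUFS1 (0.45) and CYC1 (0.46) higher and COX6A1 (-0.90) and NDUFA10 (-0.54) lower.

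Genes that copy and divide chromosomes were mostly higher. Of 42 DNA replication genes 32 rose (76.2%) and 1 fell (median 0.25). CDT1, which loads the replicative helicase, had 375, 416 and 397 CPM in CHERP knockdown, against 239, 214 and 240 CPM in control libraries (0.78 ± 0.058, adjusted p = 1.16e-10). PRIM1, the primase subunit, had 91.5, 106 and 111 CPM against 51.7, 52.2 and 59.3 CPM (0.92 ± 0.071). ORC1 of the origin recognition complex (0.80) and MCM2 of the helicase (0.66) rose. CDT1 was 1.36 higher than in RBM17 knockdown (adjusted p = 6.86e-15), but of the 42 genes 14 were higher and 13 lower in that contrast. It called 25.5% of all genes higher and 26.1% lower. For the 16291 protein-coding genes its counts were 3751 higher and 6582 lower. Against the same control libraries the list's median was 0.37 in RBM17 and 0.30 in U2SURP knockdown. POLD1, the catalytic subunit of polymerase delta, fell (-0.15), but was not called without CHERP knockdown library 2 (-0.15) or control library 1 (-0.10), and stood at 0.09 with offsets for GC content and length. Of 45 mitosis genes 30 rose (66.7%) and 6 fell (13.3%; median 0.23). The condensin subunit NCAPD2 (0.62), the checkpoint activator CDC20 (0.49), CDCA8 (0.48) and TOP2A (0.56) rose, and MKI67, the proliferation marker, fell to 818, 755 and 759 CPM in CHERP knockdown, against 1170, 1109 and 1093 CPM in control libraries (-0.53 ± 0.052), with SPC24 (-0.50), CENPE (-0.42) and AURKB (-0.23) also lower. Of 20 cohesin genes 14 rose (70%) and none fell (median 0.30). RAD21 (0.66), SMC3 (0.61) and STAG2 (0.61), core subunits of the mitotic ring, rose beside the meiotic SMC1B (2.06), while REC8 (-0.06), STAG3 (-0.06) and RAD21L1 (0.53, adjusted p = 0.101), also meiotic, did not pass; RAD21L1 was called without CHERP knockdown library 1 (0.74).

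Neuronal genes fell more often than they rose. Of 47 tested 26 fell (55.3%) and 6 rose (12.8%; median -0.49). SYP, the vesicle protein synaptophysin, had 9.32, 7.51 and 7.62 CPM in CHERP knockdown, against 22.6, 20.1 and 22.0 CPM in control libraries (-1.40 ± 0.072, adjusted p = 3.08e-13). NEFM, a neurofilament subunit, had 137, 153 and 148 CPM against 256, 250 and 271 CPM (-0.83 ± 0.059), and STMN3 (-0.84) and CPLX1 (-1.67) fell, while ELAVL2 (0.61), CELF3 (0.51) and SYN2 (0.22) rose, SYN2 not being called without CHERP knockdown library 2 (0.15) or 3 (0.19). Without CHERP knockdown library 2, 3 neuronal genes were higher. Against the same control libraries the list's median was 0.99 in RBM17 and -0.05 in U2SURP knockdown, and directly 31 of the 47 were lower in CHERP than in RBM17 knockdown, beside 26.1% of all genes, and 23 lower than in U2SURP knockdown, beside 15.0%; 6.0 and 4.0 were higher. Of 16291 protein-coding genes alone, 6582 were lower in CHERP than in RBM17 knockdown and 3492 lower than in U2SURP knockdown. SYP was 2.71 lower than in RBM17 (adjusted p = 3.87e-18) and 1.10 lower than in U2SURP knockdown (adjusted p = 7.11e-11). Cholesterol synthesis genes fell in 15 of 27 cases (55.6%) and rose in 3, or in 5 without control library 3 (median -0.22): SQLE, squalene epoxidase, had 103, 98.2 and 103 CPM in CHERP knockdown and 177, 183 and 203 CPM in control libraries (-0.89 ± 0.056), and DHCR7 (-0.80) and TM7SF2 (-0.88), reductases of the pathway, followed. Of 23 interferon-response genes 7 were higher (30.4%) and 5 lower (21.7%), or 3 lower without CHERP knockdown library 2, the exonuclease ISG20 (1.34), which degrades RNA, among those higher. The share higher is near the 29.7% of all protein-coding genes, of which 31.0% were lower.

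**Figure D4:**
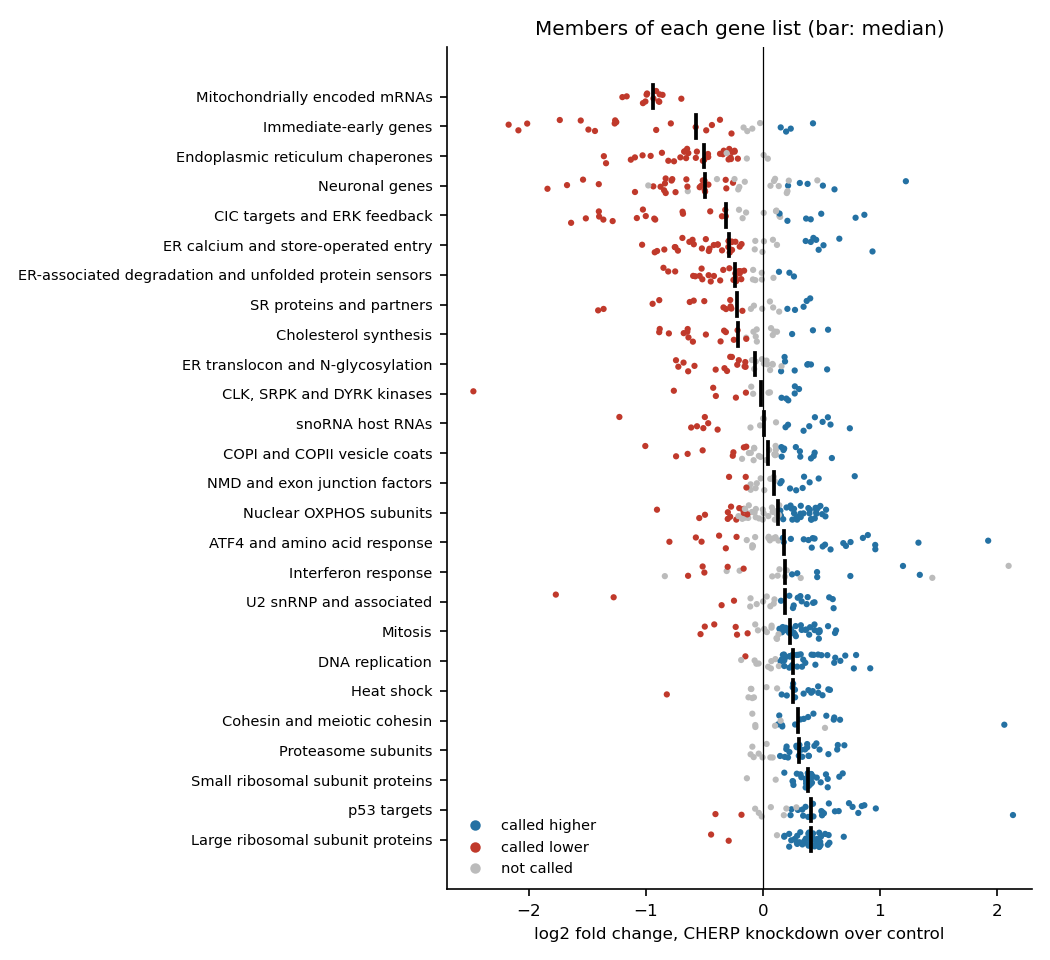
Log2 fold change of CHERP knockdown over control for each tested member of 26 gene lists (points: blue called higher, red called lower, grey not called), ordered by the list's median (bar). Medians run from -0.94 for mitochondrially encoded mRNAs to 0.41 for large ribosomal subunit genes.

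Several families of matrix and cell surface proteins were also counted; these families were picked after the values were seen and are described by their counts. Of 42 collagen genes 30 were lower (71.4%) and 2 higher, with a median of -0.60, beside 24.6% lower and 22.8% higher of all genes. With single libraries left out, 26 to 28 collagens were lower. Several called collagens averaged under 1 CPM in control libraries, COL3A1, COL5A3 and COL9A1 among those lower and COL8A2 among those higher. COL14A1, a fibril-associated collagen, had 26.4, 24.7 and 23.3 CPM in CHERP knockdown, against 94.0, 85.5 and 92.8 CPM in control libraries (-1.87 ± 0.059, adjusted p = 1.02e-16). The basement membrane collagens COL18A1 (-1.54) and COL4A2 (-1.40) and the fibrillar COL27A1 (-1.48) were lower too. All 11 LDL receptor-related proteins, endocytic and Wnt co-receptors, fell (-0.95 to -0.52), LRP6 by 0.61 and LRP8 by 0.83. All 10 Frizzled receptors of Wnt ligands fell (-0.78 to -0.24), FZD7 most clearly (-0.70), and so did all 6 glypicans, heparan sulfate proteoglycans (-1.13 to -0.38). With single libraries left out, 9 to 10 Frizzled receptors and 5 to 6 glypicans were lower. Against the same control libraries the Frizzled median was -0.41 in CHERP, -0.59 in U2SURP and -0.23 in RBM17 knockdown. The glypican median was -0.46, -0.57 and -0.23 in the same order. Of 22 tetraspanins 16 fell and none rose, and of 18 integrin alpha subunits 11 fell and none rose. Of 19 semaphorins 14 fell and 2 rose, and of 19 ADAMTS proteases 12 fell and 2 rose. Of 10 voltage-gated calcium channel alpha subunits 5 fell and 2 rose, both at least 2-fold. Of 11 HOXA genes 9 rose, HOXA7 (0.86) and HOXA10 (0.56) among them, and HOXA4 fell (-0.76). The collagens were lower in RBM17 knockdown as well (median -0.60), and 19 of 42 were lower and 11 higher in CHERP than in RBM17 knockdown, beside 26.1% and 25.5% of all genes. Against U2SURP knockdown 21 were lower and 1 higher, beside 15.0% and 12.9%. Of 16291 protein-coding genes alone, 6582 were lower and 3751 higher in CHERP than in RBM17 knockdown, so the collagen counts in that contrast lie near the protein-coding share. Against U2SURP knockdown 3492 of the protein-coding genes were lower and 2476 higher.

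The direction of change was unevenly spread over gene composition. Among protein-coding genes in the lowest quintile of GC content (30.2% to 41.2%) 39.9% rose and 22.6% fell, and in the highest quintile (58.6% to 76.8%) 17.9% rose and 42.6% fell. The median log2 fold change was 0.11 in the lowest and -0.16 in the highest quintile. With offsets for GC content and length, 34 of the 36 endoplasmic reticulum chaperones were called lower and none higher, 22 p53 targets higher and 25 neuronal genes lower. Genes with 26 or more exons fell more often (43.4%) than they rose (23.3%), while genes with 8 to 16 exons fell and rose at 31.8% and 31.5%. Of intronless genes 23.0% fell and 24.2% rose. These classes also differed in counts, with control medians of 0.854 CPM for intronless genes, 24.2 CPM for 8 to 16 exons and 61.6 CPM for 26 or more. For GC content the control medians were 27.9 CPM in the lowest and 8.44 CPM in the highest quintile. In the lowest quintile of control CPM 14.7% of genes fell and 16.4% rose, and in the highest 36.2% and 37.9%. The part of level in the shares by class was not tested. By total intron length, the share of genes that fell was 32.9% in the shortest and 33.8% in the longest quintile, and 28.6% to 30.0% in the 3 between.

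Direct contrasts with the other knockdowns show which genes set CHERP knockdown apart. CHERP knockdown differed from RBM17 knockdown in 14964 genes (51.6%) and from U2SURP knockdown in 8078 (27.9%). Both contrasts share the CHERP knockdown libraries. Genes that were higher in CHERP knockdown than in control, RBM17 knockdown and U2SURP knockdown numbered 1311 (4.52%), and those lower than in all 3 numbered 1970 (6.79%). LGR6 had 9.84, 11.1 and 9.62 CPM in CHERP knockdown, against means of 2.26 CPM in RBM17 knockdown, 4.42 CPM in U2SURP knockdown and 3.15 ± 0.349 CPM in control libraries (SD, n = 3), and was 2.17 and 1.21 log2 units above the other knockdowns. SMC1B averaged 13.6 ± 2.13 CPM in CHERP knockdown, 3.05 CPM in RBM17 knockdown, 6.06 CPM in U2SURP knockdown and 3.25 ± 0.0928 CPM in control libraries (SD, n = 3 each). ARHGAP30, a GTPase-activating protein, SPOCK2, a matrix proteoglycan, INPP5D and ISG20 ranked next by the smallest of their increases over control, RBM17 and U2SURP knockdown. INPP5D varied most between the CHERP knockdown libraries (12.5, 20.2 and 20.8 CPM). UNC5A had 1.71, 1.19 and 1.26 CPM in CHERP knockdown, against means of 6.67 CPM in RBM17 knockdown, 4.80 CPM in U2SURP knockdown and 5.30 CPM in control libraries. CDC34, a ubiquitin-conjugating enzyme of cell cycle control, had 18.6, 18.9 and 17.7 CPM in CHERP knockdown, against means of 72.1 CPM in RBM17 knockdown, 56.7 CPM in U2SURP knockdown and 53 CPM in control libraries (-1.53 ± 0.056 against control, adjusted p = 1.28e-15). CAVIN4, a muscle caveolar protein, and NPTXR were likewise lowest in CHERP knockdown. For UNC5A, CDC34, CAVIN4 and NPTXR every CHERP knockdown library lay below all 9 other libraries. For LGR6, SMC1B, ARHGAP30, SPOCK2, INPP5D and ISG20 every CHERP knockdown library lay above them. These genes were picked for differing from all 3 other groups, so this separation follows largely from the choice.

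**Figure D5:**
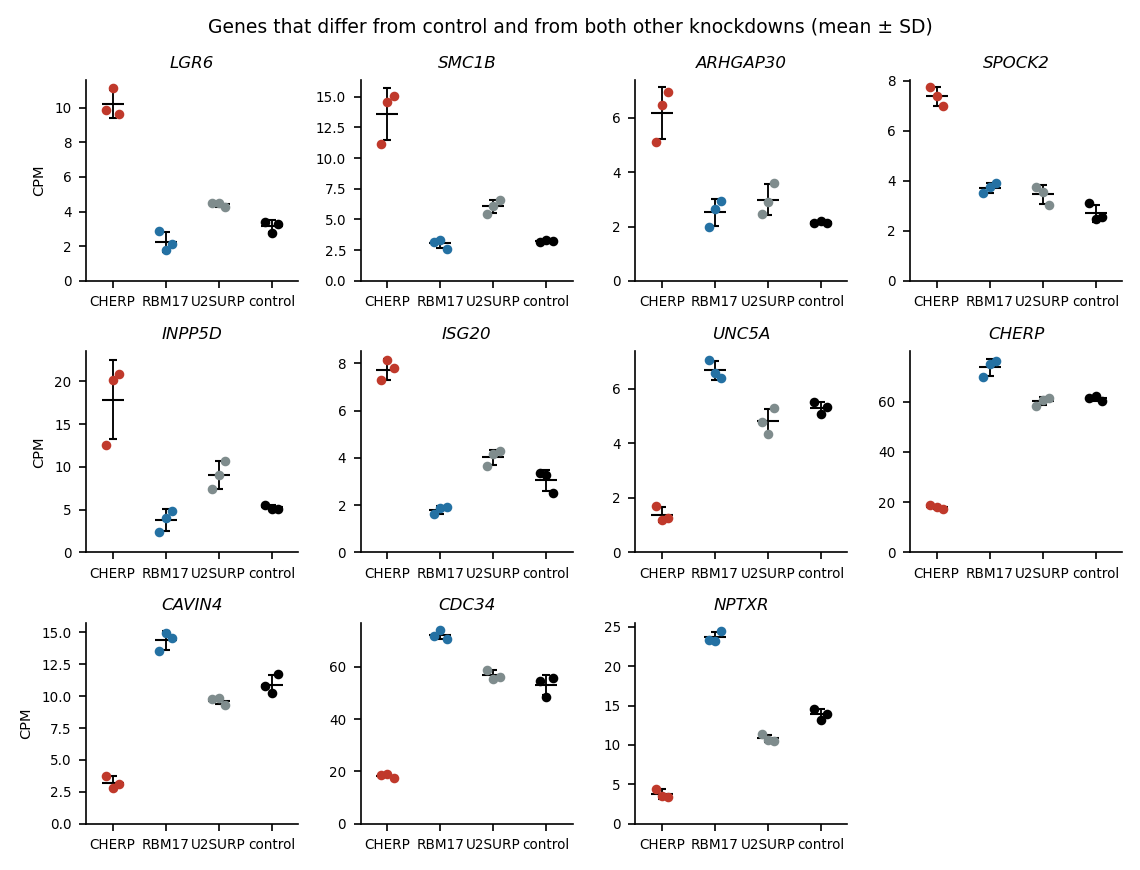
CPM per library, with mean ± SD (n = 3), of 6 genes with large increases and 5, CHERP included, with large decreases in CHERP knockdown against both other knockdowns and control. CDC34 lies at 17.7 to 18.9 CPM in CHERP knockdown and averages 72.1 CPM in RBM17 knockdown, 56.7 CPM in U2SURP knockdown and 53 CPM in control libraries.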

How the data were processed

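RNA-seq libraries of HEK293T cells were compared, 3 from CHERP knockdown and 3 from control siRNA, with 6 libraries of the RBM17 and U2SURP knockdowns in the same fit. The deposited values are whole-number read counts per gene for 60554 gene identifiers, made by the authors from TruSeq Stranded mRNA libraries per the labels' protocols. The submitters' processing notes name HISAT2 2.0.5, SAMtools, HTSeq and GRCh38; the sources used here give neither the annotation release nor the strand setting. GENCODE 29 named 56996 identifiers. Genes were filtered with filterByExpr, scaled with TMM and tested with edgeR 4.0.16 (R 4.3.3, limma 3.58.1) by a robust quasi-likelihood fit over all 12 libraries and 4 groups. Adjusted p-values cover all 29003 genes tested. Each library held 252505520 to 320986785 gene counts. The fit was tested on simulated data.

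DESeq2 1.42.0, other filters, scalings and gene sets, and leaving out each library were tried as alternatives; offsets for GC content and length, and the joint omission of a library from each group, were added after seeing the data. Named genes are the 12 protein-coding and 4 long non-coding genes with the largest changes in each direction, up to 4 called members per list and direction by smallest p, members that define a list, and 6 genes per direction in the direct contrasts. Other genes named were chosen after their values were seen. Members, lists and rules were chosen with earlier results of these data known. Some genes that these rules select are not reported here.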

Additional observations from a re-analysis of the deposited data

How the results depend on the processing

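No paired analysis was possible because the replicate numbers follow accession order and the labels pair no libraries. Most counts stayed within 1.5 times their values under the alternatives run. Genes at least 2-fold changed numbered 398 higher and 663 lower among protein-coding genes alone, and 162 higher and 275 lower when tested against a 2-fold change; fewer genes were tested in the first, and the second is stricter by construction. Of the snoRNA host RNAs, 1 was higher among protein-coding genes alone, where most of the list is not tested. Without CHERP knockdown library 1 and control library 3, 3 fibroblast markers were lower, and 13 translocon and glycosylation genes and 6 cholesterol genes higher. Genes that rose made up 48.1% of those called, 51.4% by the DESeq2 Wald test and 43.8% without CHERP knockdown library 3. POLD1 reversed to 0.0931 under GC and length offsets; the cause was not tested. Under the same offsets 5 translocon and glycosylation genes, 5 cholesterol genes and 4 collagens were higher.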
